A study of Mus musculus with 6 samples.

Results

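ATF4 peaks that lay in an intron other than the first were examined in mouse embryonic fibroblasts. They were taken from 4 annotated ATF4 ChIP-seq peak lists as the rows whose annotation placed the peak in an intron, did not call it intron 1, and whose detailed annotation named neither a repeat nor a CpG island. This rule used position only and found 4495 of 17462 listed peaks. In WT cells it gave 1208 of 4850 peaks with leucine and 1650 of 6374 without, and in GCN2 KO cells 916 of 3566 with leucine and 721 of 2672 without. A further 1134 later-intron peaks were left out because they were annotated to a repeat or a CpG island, and 1641 peaks in first introns that passed the same filters were used for comparison.

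The cells were fibroblasts of the 129S6/SvEvTac strain, either WT or GCN2-/- (GCN2 KO), and were kept for 24 h in complete DMEM (+Leu) or in DMEM lacking leucine (-Leu). Each condition was represented by 1 library. Its chromatin was a pool of 2 experiments, with 5 or more replicates in each. Conditions were therefore compared without a test, and p-values are not given. Both lists of a genotype were called against input chromatin of leucine-fed cells of that genotype. Intervals are 95% Wilson intervals for shares and Newcombe intervals for differences between shares. For ratios of counts, the Wilson interval of the -Leu share of both counts was turned into a ratio. All cover counting error only. Peak lists hold neither the cell type's markers nor GCN2 expression, so the labels could not be checked against them, and the sequencing depth is unknown.

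ATF4 is a basic leucine zipper (bZIP) transcription factor whose translation increases when eIF2α is phosphorylated, as it is by GCN2 when uncharged tRNA accumulates during amino acid shortage. ATF4 binds DNA as a dimer, often with a C/EBP partner, at a composite element that joins an ATF-type TGATG to a C/EBP-type CAA. Introns beyond the first lie inside the transcribed body of a gene, where binding may be far from any annotated transcription start site (TSS), and the gene that a peak lies in need not be the gene whose TSS is nearest.

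The sites below are a selection of strong or recurrent later-intron peaks that held TGATGCAA. They are shown so that the shared element and its differing surroundings can be read. They do not stand for all strong peaks, since 52 of the 130 WT -Leu later-intron peaks that scored 100 or more held it. Strong peaks without it, such as that of Bri3bp at 971 in WT -Leu, are not among them. Each line gives the reference sequence (mm10, GRCm38) of 8 bases in capitals, the match to TGATGCAA, with 12 bases on either side in lower case, written 5′ to 3′ on the strand that holds the match.
Ubr2 intron 2 (chr17:46995102-46995133, plus strand): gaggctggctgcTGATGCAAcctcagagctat
Gm13807 intron 4 (chr2:93417090-93417121, minus strand): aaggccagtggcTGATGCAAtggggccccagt
4930543E12Rik intron 2 (chr7:113140133-113140164, minus strand): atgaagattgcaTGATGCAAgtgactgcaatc
Tm9sf2 intron 3 (chr14:122130270-122130301, minus strand): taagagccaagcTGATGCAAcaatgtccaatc
Atrnl1 intron 24 (chr19:57762675-57762706, plus strand): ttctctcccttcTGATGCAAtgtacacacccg
Ciapin1 intron 6 (chr8:94825328-94825359, plus strand): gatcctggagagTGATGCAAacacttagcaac
Gramd1b intron 4 (chr9:40321784-40321815, plus strand): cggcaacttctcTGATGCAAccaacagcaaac
Nfe2l1 intron 2 (chr11:96822756-96822787, minus strand): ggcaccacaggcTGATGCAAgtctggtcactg
Herpud1 intron 3 (chr8:94390662-94390693, minus strand): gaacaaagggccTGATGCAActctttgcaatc
Fbln2 intron 9 (chr6:91260565-91260596, plus strand): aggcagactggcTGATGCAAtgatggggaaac
The first 5 of these sites were listed in at least 3 of the 4 lists. The Ciapin1 and Herpud1 sites were listed in WT -Leu alone. Outside the capitals the 10 sites were not identical, but some shared short stretches. For example, the 4930543E12Rik and Herpud1 sequences both end in gcaatc, and Gm13807, Nfe2l1 and Fbln2 have ggc directly before the element.

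A further 4 strong WT -Leu sites held a match with another base at the sixth position of the element, and are shown because strong peaks without the exact element often carried such a match.
Edem1 intron 4 (chr6:108843897-108843928, plus strand): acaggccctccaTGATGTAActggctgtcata
Arhgap33 intron 20 (chr7:30524622-30524653, minus strand): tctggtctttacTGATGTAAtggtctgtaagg
Astn2 intron 20 (chr4:65420745-65420776, plus strand): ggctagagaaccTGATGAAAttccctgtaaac
Vars intron 2 (chr17:35001987-35002018, plus strand): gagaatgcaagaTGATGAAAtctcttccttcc
Capitals here mark the match to TGATGNAA, where N is any base.

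More later-intron peaks were listed in WT cells without leucine than with it, and fewer in GCN2 KO cells without leucine than with it. The -Leu to +Leu ratio of later-intron peaks was 1.37 (95% interval 1.27 to 1.47) in WT and 0.787 (0.714 to 0.868) in GCN2 KO. These ratios moved with the length of the lists. When the 2672 strongest peaks of every list were compared, the ratio was 1.01 in WT and 1.08 in GCN2 KO. At equal list length the ratio compares only the later-intron shares of the lists. It cannot show a difference in the number of peaks. Later-intron peaks made up 24.9% (23.7 to 26.1) of the WT list with leucine and 25.9% (24.8 to 27.0) of the list without. In GCN2 KO the shares were 25.7% (24.3 to 27.1) and 27.0% (25.3 to 28.7), and the intervals of the 4 lists overlapped.

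The lists differed most in their strong peaks. The peak score is the value the deposited lists give each peak. It is not normalized between libraries, so scores of different lists are set side by side as listed. The median later-intron score was 30 in WT -Leu and 29 in each of the other lists. The upper quartile was 42 in WT -Leu, and it was 36 in WT cells with leucine, 34 in GCN2 KO cells with leucine and 35 in GCN2 KO cells without. A score of 100 or more was held by 11 later-intron peaks in WT +Leu (0.911%, 0.509 to 1.62) and by 130 in WT -Leu (7.88%, 6.67 to 9.28), against 1.86% and 9.82% of all peaks of these lists. It was held by 1 later-intron peak in each GCN2 KO list, against 0.897% of all GCN2 KO peaks with leucine and 0.487% without. That peak was the Ubr2 site in both.

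**Figure D1:**
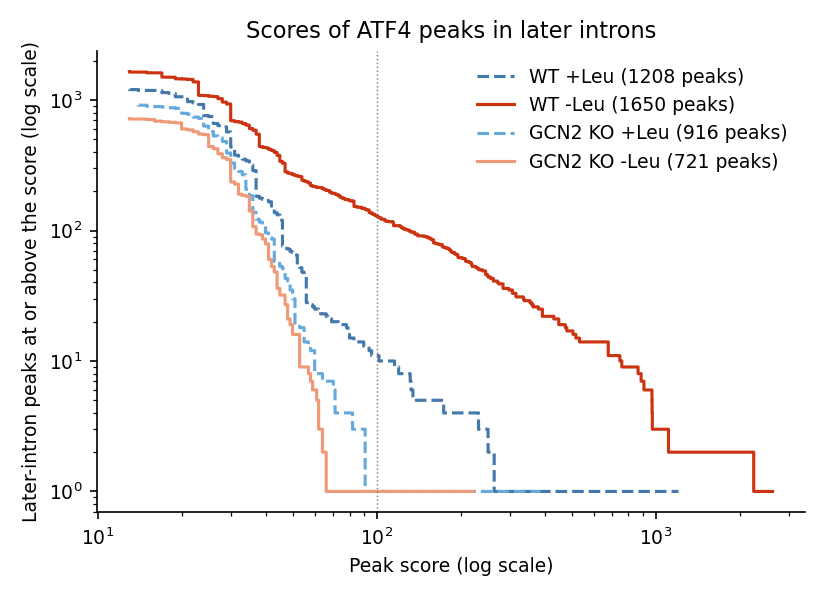
Number of later-intron ATF4 peaks (y axis, log scale) at or above each peak score (x axis, log scale), with a line per list and a dotted line at a score of 100. The WT -Leu line stays above the others beyond the common bulk of scores, with 130 peaks at 100 or more against 11 in WT +Leu and 1 in each GCN2 KO list.

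Strong peaks were less frequent in later introns than in first introns. In WT -Leu, 97 of 651 first-intron peaks (14.9%, 12.4 to 17.8) scored 100 or more, and the later-minus-first difference was -7.02 percentage points (-10.2 to -4.13). In WT +Leu it was -3.69 points (-6.12 to -1.93) and in GCN2 KO +Leu -1.62 points (-3.62 to -0.56). For GCN2 KO cells without leucine the interval of -3.29 to 0.128 points around -0.818 held zero.

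The Ubr2 site was the most recurrent strong later-intron site. It lies in intron 2 of 46 of Ubr2, an E3 ubiquitin ligase of the N-degron pathway, 15.4 kb from the TSS. In WT cells its score was 1209 with leucine and 2249 without. In GCN2 KO cells it was 387 with leucine and 222 without. It therefore ranked among the 4 highest peaks of each whole list, and was higher without leucine in WT and lower without leucine in GCN2 KO. A site in intron 4 of the predicted gene Gm13807 was the only other one among the later-intron peaks of WT +Leu with a partner in all 3 other lists, where a partner is a peak whose center lay 300 bp or less away. Its scores were 45 and 115 in WT cells with and without leucine, and 25 in both GCN2 KO lists.

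A further 3 sites recurred in 3 lists. The site in intron 2 of 4930543E12Rik scored 251 in WT +Leu, 972 in WT -Leu and 59 in GCN2 KO -Leu, and was not listed in GCN2 KO +Leu. In intron 3 of Tm9sf2, which encodes a multispanning membrane protein, the scores were 79 in WT +Leu, 534 in WT -Leu and 43 in GCN2 KO +Leu. In intron 24 of Atrnl1, an attractin-like transmembrane protein, they were 54, 284 and 51 in the same order. At all 5 recurrent sites WT -Leu held the highest score. All 5 held TGATGCAA, as printed above.

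Few later-intron peaks recurred between lists. Of the 1208 WT +Leu members, 47 (3.89%, 2.94 to 5.14) had a WT -Leu partner, against 6.35% of all WT +Leu peaks, and of the 1650 WT -Leu members 51 (3.09%, 2.36 to 4.04) had a WT +Leu partner, against 4.85% of all WT -Leu peaks. In GCN2 KO, 12 of 916 +Leu members (1.31%, 0.751 to 2.28) and 16 of 721 -Leu members (2.22%, 1.37 to 3.57) had a partner in the other list, against 2.75% and 3.59% of all peaks. Between genotypes, 9 WT +Leu members had a GCN2 KO +Leu partner (0.745%, background 1.92%) and 13 WT -Leu members had a GCN2 KO -Leu partner (0.788%, background 1.27%).

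Recurrence went with score. All 11 WT +Leu members that scored 100 or more had a WT -Leu partner, whereas 11 of the 638 that scored under 30 had one. Of the 130 WT -Leu members that scored 100 or more, 28 had a partner in WT +Leu. The GCN2 KO lists held partners of 7 with leucine and of 6 without, and 96 had none in any other list. Those 96 included 33 with TGATGCAA, and the other 34 included 19. Partner counts for all 626 WT -Leu peaks that scored 100 or more are not given here. Whether these counts are particular to later introns therefore cannot be told.

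The score was mostly higher without leucine at sites listed in both WT lists. Of the 47 WT +Leu members with a WT -Leu partner, 36 scored higher in WT -Leu, 9 lower and 2 the same, with a median ratio of 2.56. Among the 33 pairs in which either score reached 50, 30 were higher in WT -Leu and the median ratio was 4.2. This choice by score favors pairs with large scores and is a description only. The same counts over all 308 WT +Leu peaks with a WT -Leu partner are not given here. Scores of 100 or more were also more frequent in the whole WT -Leu list, at 9.82% against 1.86% in WT +Leu. The 3 exceptions were Madd, a Rab guanine nucleotide exchange factor, at 232 with and 160 without leucine, the homeobox gene Pknox2 at 69 and 23, and Tbc1d16, which has a Rab GTPase-activating domain, at 80 in both. The 8 highest WT +Leu members also included Chst9, a sulfotransferase gene, at 174 with and 271 without leucine, and Limch1 at 132 and 190.

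**Figure D2:**
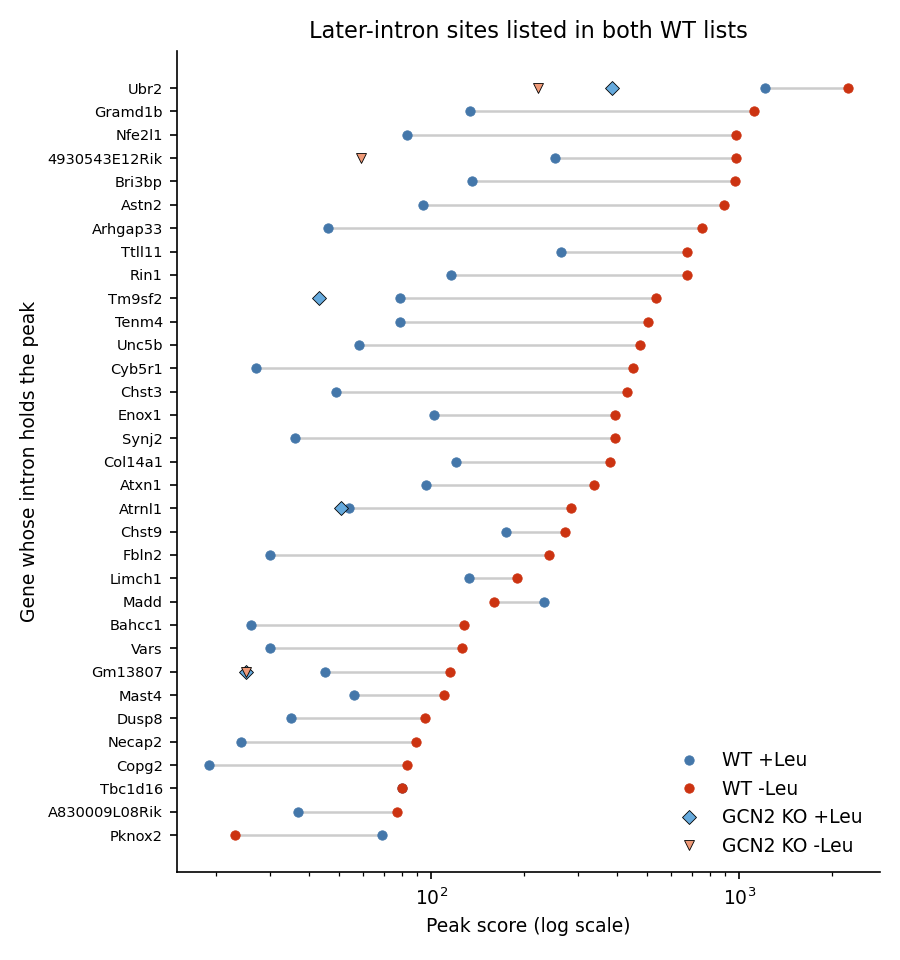
Peak scores (x axis, log scale) at the 33 later-intron sites listed in both WT lists with a score of 50 or more in either, named by the gene whose intron holds the peak (y axis). Gray lines join the WT scores, and diamonds and triangles mark GCN2 KO partners, which overlap at Gm13807. The score was higher in WT -Leu at 30 of the sites, and 5 had a GCN2 KO partner.

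Large differences in score were also seen at WT pairs that were not listed in GCN2 KO cells. Gramd1b, which encodes a cholesterol transfer protein of the endoplasmic reticulum (ER), held a site that scored 133 in WT +Leu and 1113 in WT -Leu. Bri3bp intron 2 scored 135 and 971, and Arhgap33 intron 20 scored 46 and 757. Ttll11, a tubulin polyglutamylase, scored 264 and 677, and the Ras effector Rin1 116 and 677. None of these 5 had a GCN2 KO partner.

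Of the other WT pairs, 5 more are named here as a selection made after their values were seen. The teneurin gene Tenm4 scored 79 in WT +Leu and 506 in WT -Leu, and the netrin receptor gene Unc5b 58 and 475. Chst3, a chondroitin sulfotransferase, scored 49 and 432. The fibril-associated collagen gene Col14a1 scored 120 and 380, and the fibulin gene Fbln2 30 and 240. All 5 scored higher without leucine, and none had a GCN2 KO partner.

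The highest later-intron peak of all was listed in WT -Leu alone. It scored 2628, the highest score of the whole WT -Leu list, and lay in intron 6 of 8 of Ciapin1, a factor of cytosolic iron-sulfur protein assembly, 13002 bp from the TSS. Herpud1, a component of ER-associated degradation that is induced by ER stress, held a peak of 866 in intron 3 of 7. Edem1, a lectin of the same degradation pathway, held a peak of 677 in intron 4 of 11, and is named here after its value was seen. Eif3c, a subunit of the translation initiation factor eIF3, held a peak of 518, and Nucb2, a calcium-binding protein and nesfatin precursor, a peak of 393. None of these genes' peaks had a partner in another list. Ttc28 held a WT -Leu peak of 909 with a GCN2 KO -Leu partner of 28.

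In the GCN2 KO lists the strongest members after Ubr2 scored far lower. In GCN2 KO +Leu they were Msi2 and Wdfy3 at 91, A430033K04Rik at 82, Hecw2 and Tdrd9 at 71, Ttl at 70 and Lamc1 at 64. Of these 7, only Wdfy3, a scaffold of selective autophagy, had a WT partner, at 246 in WT -Leu. In GCN2 KO -Leu they were Gpc6 at 66, Tram1 at 64, Cd47 and Man1c1 at 62, Ncs1 at 61, 4930543E12Rik at 59 and 3110082I17Rik at 58, of which 4930543E12Rik alone had a partner. Among these 14 peaks, only that of 4930543E12Rik held TGATGCAA.

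The composite element was more frequent in later-intron peaks than in the sequence beside them in every list, though on few peaks in GCN2 KO. TGATGCAA was searched on both strands within 50 bp of each peak center, and in windows of the same length 1 kb to either side. Of the WT members, 22 of 1208 held it with leucine (1.82%, 1.21 to 2.74) and 113 of 1650 without (6.85%, 5.73 to 8.17), against 2.71% and 6.95% of all peaks of these lists. Of the GCN2 KO members, 9 of 916 held it with leucine (0.983%, 0.518 to 1.86) and 4 of 721 without (0.555%, 0.216 to 1.42), against 1.07% and 1.09% of all peaks. The neighboring windows held it in 0.0414% of cases in WT +Leu, 0.303% in WT -Leu and 0.273% in GCN2 KO +Leu. None of the 1442 windows beside GCN2 KO -Leu members held it, with an upper bound of 0.266%. The intervals of members and neighboring windows did not overlap in the WT lists and overlapped in both GCN2 KO lists. Such an overlap does not show that the shares were equal, and the member share was the higher in both GCN2 KO lists. The WT -Leu share of members was close to that of the whole list.

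First introns held the element more often in the WT lists and, on few peaks, in GCN2 KO -Leu. In WT -Leu, 66 of 651 first-intron peaks held it (10.1%, 8.05 to 12.7), and the later-minus-first difference was -3.29 percentage points (-6.08 to -0.817). Among peaks over 5 kb from a TSS the difference was -2.52 points with an interval of -5.95 to 0.301, which held zero. In WT +Leu the difference was -4.85 points (-7.66 to -2.66), and over 5 kb from a TSS it was -3.57 points (-6.8 to -1.35). In GCN2 KO +Leu it was -0.463 points (-2.41 to 0.74). Without leucine it was, on 4 and 6 peaks, -2.32 points (-5.58 to -0.543). Over 5 kb from a TSS the GCN2 KO difference was 0.0682 points (-2.29 to 1.2) with leucine. Without leucine it was, on 2 and 3 peaks, -1.86 points (-5.89 to -0.215). First introns also held a larger share of strong peaks, and these differences were not split by score.

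**Figure D3:**
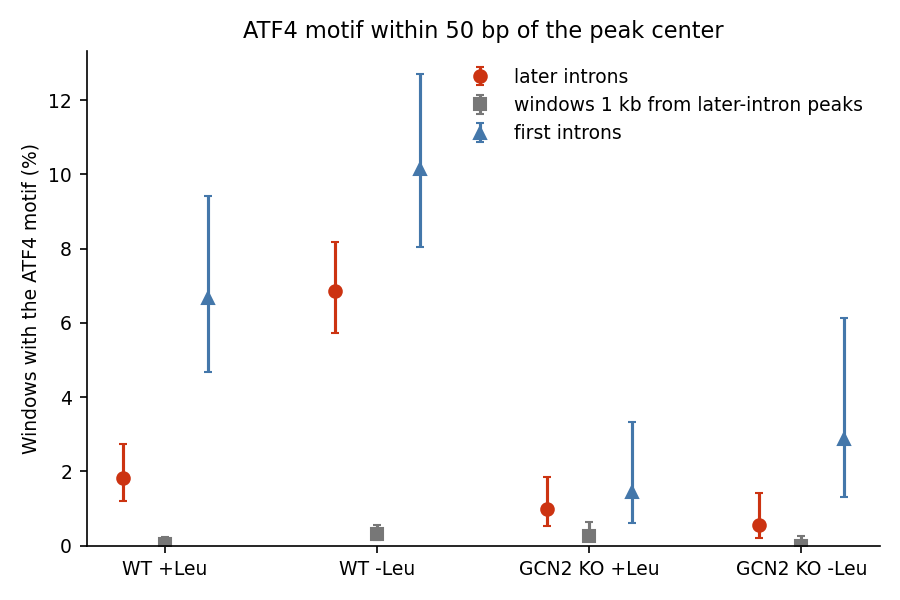
Share of windows with TGATGCAA within 50 bp of the center (y axis, percent) for later-intron peaks, the windows 1 kb to either side of them, and first-intron peaks, by list (x axis). Bars are 95% Wilson intervals. In WT -Leu the share was 6.85% in later introns, 0.303% beside them and 10.1% in first introns.

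The element was concentrated in strong peaks. In WT -Leu it was held by 52 of 130 members that scored 100 or more (40.0%, 32.0 to 48.6) and by 35 of 88 that scored 60 to 99 (39.8%, 30.2 to 50.2). It was held by 18 of 716 members at 30 to 59 (2.51%, 1.6 to 3.94) and by 8 of 716 under 30 (1.12%, 0.567 to 2.19). In WT +Leu the same classes held it in 6 of 11, 4 of 15, 10 of 544 and 2 of 638. Of the 22 WT +Leu members with the element, 17 had a WT -Leu partner, while 5 of the 1161 members without a partner held it (0.431%). Shares by score class over all peaks of the lists are not given here. Whether this concentration is particular to later introns therefore cannot be told.

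**Figure D4:**
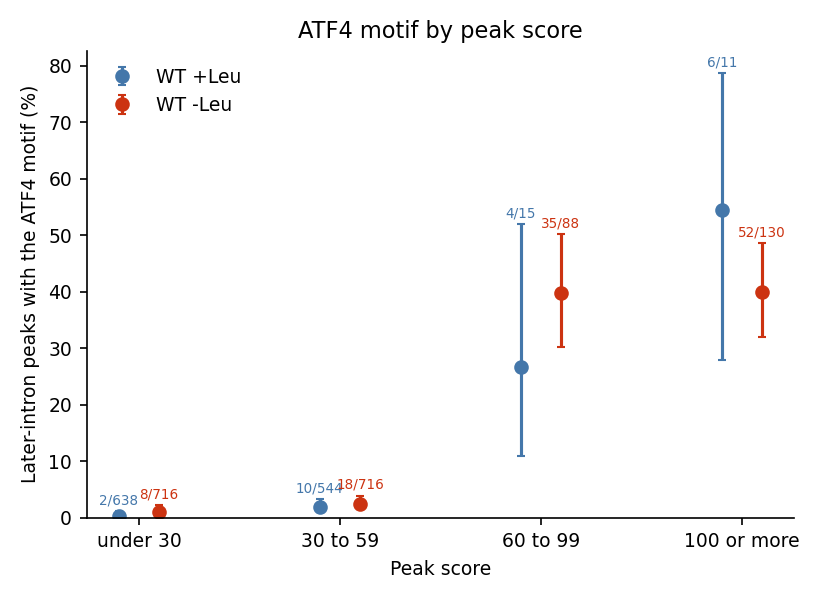
Share of later-intron peaks with TGATGCAA (y axis, percent) by class of peak score (x axis) in the WT lists, with 95% Wilson intervals and the counts above each point. In WT -Leu the share was about 40.0% in both classes of 60 or more and 2.51% or less below.

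Strong peaks without the exact element often held a sequence that differed from it at 1 base, an alternative added after the data had been seen. Of the 78 WT -Leu members that scored 100 or more and lacked TGATGCAA, 45 held such a sequence (57.7%, 46.6 to 68.0), against 15 of 156 neighboring windows (9.62%). The most frequent were TGATGTAA in 13 members and 0 neighboring windows, TGATGAAA in 10 members and 3 windows, TGAAGCAA in 5 and 2, and TCATGCAA in 4 and 0. In 33 members neither the element nor a sequence 1 base away from it was found. Among members under 30 the share was 6.64% (5.03 to 8.72), near the 5.16% of their neighboring windows. Over whole lists, the exact or 1-base match was held by 16.8% of members (15.1 to 18.7) in WT -Leu and 9.19% (7.69 to 10.9) in WT +Leu, against 5.79% and 5.92% of neighboring windows. In GCN2 KO cells it was 6.11% against 6.17% with leucine, and 5.83% against 6.8% without. These 1-base counts are not given for all peaks or for first introns, so they cannot be called particular to later introns.

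The element lay near the peak center in the WT lists. In WT -Leu, 150 copies were found in the 301-base listed windows of 145 members, at a median of 26.5 bp from the center, and 115 copies lay wholly within 50 bp. In WT +Leu there were 35 copies at a median of 28.5 bp. GCN2 KO cells had few copies, 13 with leucine at a median of 24.5 bp and 9 without at a median of 94.5 bp. Of those 9, 4 lay within 50 bp. Of 114 central WT -Leu copies whose host strand was known, 45 read TGATGCAA on the strand of the gene (39.5%, 31.0 to 48.6).

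**Figure D5:**
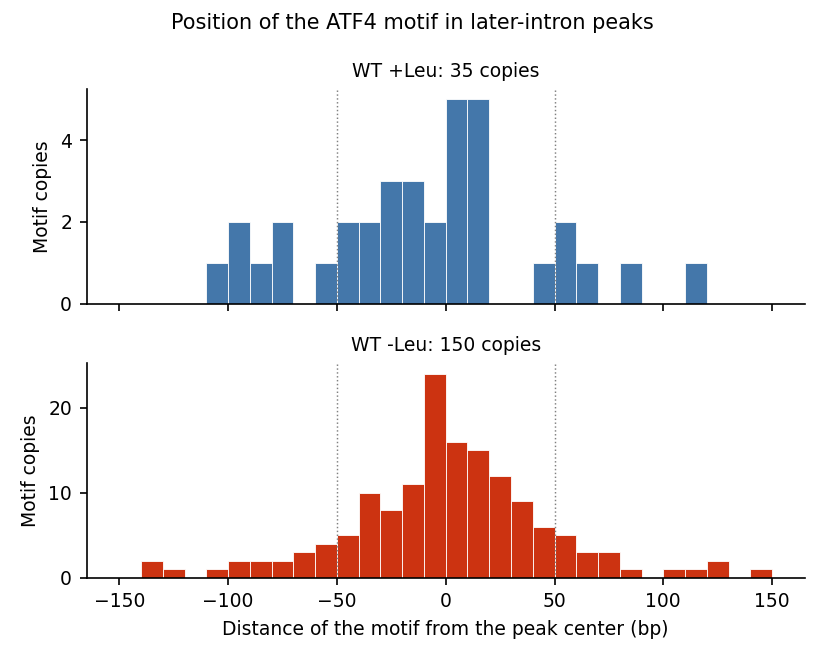
Number of TGATGCAA copies (y axis, different scales) by distance from the peak center in bp (x axis, 10-bp bins) in the later-intron peaks of WT +Leu (35 copies) and WT -Leu (150 copies). Dotted lines mark 50 bp. Most copies lie between the lines, 115 of 150 in WT -Leu.

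The base after the element differed from that at all copies in the genome. In WT -Leu, TGATGCAA was followed by T in 45 of 115 central copies (39.1%, 30.7 to 48.3), by C in 35 (30.4%, 22.8 to 39.4), by G in 29 (25.2%, 18.2 to 33.9) and by A in 6 (5.22%, 2.41 to 10.9). Among the 87106 copies on the reference chromosomes, A was the most frequent next base at 41.7%, and T followed in 25.5%, G in 20.3% and C in 12.5%. Ciapin1, printed above, was among the 6 copies followed by A. The genome count included copies in repeats and outside introns, whereas members were intronic and not annotated to repeats. The part this had in the difference was not tested.

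Of the other elements searched, most were near the level of the neighboring sequence. The AP-1 element TGANTCA is bound by bZIP dimers of the Fos and Jun families. It was held by 69 WT -Leu members (4.18%, 3.32 to 5.26) against 2.39% of neighboring windows (1.93 to 2.97). In WT +Leu it was held by 2.73% of members against 2.69%. The higher share in WT -Leu was not particular to later introns. First-intron WT -Leu peaks held the AP-1 element in 38 of 651 cases (5.84%, 4.28 to 7.91) against 2.0% of their neighboring windows. Within WT -Leu it was held by 10 of the 113 members with TGATGCAA (8.85%, 4.88 to 15.5), by 12 of 131 members that scored 60 or more without it (9.16%, 5.32 to 15.3) and by 47 of 1406 that scored under 60 without it (3.34%, 2.52 to 4.42). The elements did not overlap in any of those 10 members, and the centers of the nearest copies lay a median of 41.5 bp apart. Ciapin1, Tm9sf2 and Enox1 were among them. The related TGACGCAA was held by 7 WT -Leu members and none of their 3300 neighboring windows, and by none in the other lists. The cyclic AMP response element TGACGTCA was held by 5 WT -Leu members, the C/EBP palindrome TTGCGCAA by none in any list, and TTGCACAA by 6 in WT -Leu. The E-box CACGTG was held by 2.12% of WT -Leu members against 1.52% of neighboring windows, and the repeat-like GGAAGGAA by 1.03% against 1.42%. In GCN2 KO -Leu the E-box was held by 2.36% (1.48 to 3.74) against 0.832% (0.477 to 1.45).

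Of the 13 GCN2 KO members with the element, 8 had a WT partner. In GCN2 KO +Leu these were Ubr2, Atrnl1, Tm9sf2, Gm13807 and Dpf3, a chromatin-remodeling subunit that scored 36 there and 168 in WT -Leu. In GCN2 KO -Leu they were Ubr2, 4930543E12Rik and Gm13807. The members without a WT partner were Kalrn at 55, Actr3b at 34, Afap1 at 26 and Arhgef16 at 25 in GCN2 KO +Leu and Zdhhc14 at 25 in GCN2 KO -Leu. Dpf3 and the last 5 genes were chosen after their values were seen.

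The gene that held a later-intron peak was often not the gene with the nearest TSS. By gene identifier they were the same for 958 of 1627 WT -Leu members with an identified host (58.9%, 56.5 to 61.2) and for 57.8% (55.0 to 60.6) in WT +Leu. In GCN2 KO the share was 56.2% (53.0 to 59.4) with leucine and 55.9% (52.3 to 59.5) without. For first-intron peaks the share was 92.9% (90.6 to 94.6) in WT -Leu. A first intron begins beside the TSS of its own transcript, so this difference follows in part from the rule. The Gramd1b peak was nearest to the TSS of 1700110K17Rik, the Unc5b peak to Slc29a3, and the peak in intron 20 of 22 of the neuronal gene Astn2, which scored 94 in WT +Leu and 888 in WT -Leu, to Trim32, 184 kb away.

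Later-intron peaks were far from start sites. The median distance to the nearest TSS was 27.8 kb in WT -Leu, against 9.45 kb for its first-intron peaks. It was 27.6 kb in WT cells with leucine, and 28.0 and 25.6 kb in GCN2 KO cells with and without leucine. Within 5 kb of a TSS lay 159 WT -Leu members (9.64%, 8.3 to 11.2) and 250 first-intron peaks (38.4%, 34.7 to 42.2). Both differences from first introns follow in part from the rule, which leaves out the introns that begin beside a TSS. Of the 130 WT -Leu members that scored 100 or more, 16 lay within 5 kb of a TSS and 57 lay over 50 kb away. The shortest distances among the strong sites named here were those of Eif3c, 0.459 kb from the TSS, and Cyb5r1, 0.557 kb, a cytochrome b5 reductase gene whose intron 2 scored 27 in WT +Leu and 450 in WT -Leu.

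The median intron number was 5 in both WT lists and 6 in both GCN2 KO lists, and intron 2 held 365 of 1650 WT -Leu members (22.1%). Peaks were spread along the intron, with a median position of 0.527 of its length in WT -Leu (quartiles 0.233 and 0.771). The host intron had a median length of 6.65 kb in WT -Leu, against 28.1 kb for first-intron peaks. WT -Leu members with TGATGCAA lay in introns with a median length of 14.1 kb, and those without TGATGNAA in introns of 6.0 kb. In WT +Leu these lengths were 7.3 and 7.53 kb. The transcript model matters for some members, since 181 WT -Leu members (10.97%, 9.55 to 12.6) also lay in the first intron of another annotated transcript. These included Nfe2l1, an ER-anchored bZIP factor that controls proteasome genes, whose site 1.23 kb from the TSS scored 83 in WT +Leu and 974 in WT -Leu, and also Chst3, Ttc28 and Vars.

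The peaks were richer in GC than their surroundings in every list. The median GC content was 52.5% in WT -Leu members and 48.3% in the windows beside them, and 1306 of 1650 members (79.2%) exceeded their own neighbors. The corresponding share was 81.0% in WT +Leu, and in GCN2 KO it was 82.5% with leucine and 82.9% without. WT -Leu members with TGATGCAA had a median GC content of 50.5%, and those without TGATGNAA of 52.8%. In WT +Leu these values were 52.0% and 52.2%. First-intron peaks of WT -Leu had a median GC content of 52.2%, so the level was not particular to later introns. The neighboring windows were not filtered for repeats, CpG islands or introns as members were. The part this had in the difference from the surroundings was not tested.

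The 1650 WT -Leu members lay in 1314 identified host genes, of which 220 held more than 1. The cadherin gene Cdh4 held 8 of them, the most for a gene in any list. The 130 members that scored 100 or more lay in 122 genes, of which 8 held 2 each, where the nearest gene stood in for the 3 members without an identified host.

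Targets of the integrated stress response made up a smaller share of WT -Leu members than of all WT -Leu peaks, while synthetases and transporters made up similar shares of both. Of the other lists, some made up a smaller and some a larger share of members, as given below. These shares are descriptions. In the lists that follow, a gene was counted where it held the peak or had the nearest TSS. Among 30 targets of the integrated stress response, 2 had a WT -Leu later-intron peak, while 28 had a peak anywhere in that list. These were Herpud1 at 866 and the growth factor gene Vegfa at 28. In WT +Leu 4 of the 30 had a later-intron peak, all under a score of 60. In GCN2 KO the number was 1 with leucine and 2 without. These genes made up 0.121% of WT -Leu members and 0.628% of all WT -Leu peaks.

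Of 39 symbols of aminoacyl-tRNA synthetases, among which Mars and Mars1 name the same gene, 7 had a WT -Leu later-intron peak and 20 any peak. They made up 0.424% of members and 0.408% of all peaks. The highest were those of Vars, the valyl-tRNA synthetase, which scored 30 in WT +Leu and 126 in WT -Leu, and Rars, the arginyl-tRNA synthetase, at 83 in WT -Leu alone. None of the 7 peaks held TGATGCAA. Of 31 amino acid transporters 5 had a WT -Leu member and 14 any peak (0.303% of members and 0.329% of all peaks), the highest at Slc38a7, a lysosomal glutamine transporter, with 107 in WT -Leu alone. Of 28 enzymes of amino acid and one-carbon synthesis 2 had a member in WT -Leu and 17 any peak (0.121% and 0.424%), the higher at Ass1, argininosuccinate synthase, with 59.

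Of 42 genes of mTORC1 and amino acid sensing, 5 had a WT -Leu member and 13 any peak (0.424% of members and 0.298% of all peaks). The highest score, 71, was at Tsc1, a subunit of the complex that restrains mTORC1. Of 50 bZIP factors 3 had a WT -Leu member and 23 any peak (0.182% and 0.471%), with Nfe2l1 the highest and Batf at 85. In WT +Leu the AP-1 repressor gene Jdp2 held a peak of 26 with TGATGNAA. Of 35 genes of autophagy and lysosome control 2 had a WT -Leu member and 8 any peak (0.121% and 0.204%).

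Of 47 matrix and collagen genes, 9 had a WT -Leu member and 17 any peak, and they gave 12 of 23 peaks there and 14 of 22 in WT +Leu. In WT -Leu they made up 0.727% of members and 0.361% of all peaks. One WT -Leu member of this list, at Fbln2, scored 60 or more, and it held TGATGCAA. Col14a1, whose WT -Leu peak of 380 also held it, was not in the list. Of 36 very long genes, many of them neuronal, 9 had a WT -Leu member and 25 any peak (0.970% and 0.800%), which gave 16 of 51 peaks. The later-intron share of the whole list was 25.9%. WT -Leu members at these long genes that scored 60 or more lay at Astn2, at Macrod2 with 140 and at Rbfox1, an RNA-binding splicing factor gene, with 97. The Rbfox1 peak held TGATGCAA.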

How the data were processed

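ATF4 ChIP-seq was performed by the study in WT and GCN2 KO MEFs with 1 library per condition. Per the labels and the study's methods, the authors used fastx for trimming, BWA 0.7.12 for alignment to mm10, MACS2 2.1.0 for peak calls (--nomodel, false discovery rate of 0.05) and HOMER 4.7 to annotate the summits ±150 bp (versions from the submitters' processing notes). The authors deposited for each peak a score, which is not normalized between libraries, and the fraction of its bases that are GC or lie in CpG. Depth is not given in the sources used here, and the 2 input libraries were not analysed here.

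Members were taken by annotation. The mm10 reference (GRCm38) was used after the deposited GC fraction of all 17408 peaks on assembled chromosomes had equaled that of the reference sequence. Motifs were searched on both strands within 50 bp of the center, and in windows 1 kb to either side. These windows were not filtered for repeats, CpG islands or introns. Partners were peaks with centers 300 bp or less apart. Hosts were taken from the annotated RefSeq transcript by gene identifier, and 58 of 4495 members had none. Intron lengths used the 4310 members whose intron number matched the reference. Python 3.11.15, numpy 2.4.6, pandas 2.3.3, pysam 0.24.0 and matplotlib 3.10.9 were used, and both the motif search and the partner search were tested on simulated windows and peaks.

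Members and gene lists were chosen with earlier results of these data known. The text names genes from the 8 highest members of each list, members with partners in at least 2 other lists, WT pairs with a score of 50 or more in either list, members with TGATGCAA and a score of 100 or more, and listed genes with TGATGNAA or a score of 60 or more, with a selection where these were many. Ass1, Vegfa, Cdh4 and the genes so marked were named after their values were seen. A gene that these rules would name is not reported here.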

Additional observations from a re-analysis of the deposited data

Results flagged for a closer look

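When leucine was removed, the number of later-intron peaks was higher in WT and lower in GCN2 KO, and the difference between genotypes was not tested because each condition had 1 library. The -Leu to +Leu ratio of later-intron peaks was 1.37 in WT and 0.787 in GCN2 KO. The ratio of their host genes was 1.28 in WT and 0.778 in GCN2 KO. The ratio of peaks that scored 60 or more was 8.38 in WT (218 against 26) and 0.5 in GCN2 KO (6 against 12, interval 0.194 to 1.29). The ratio of peaks with TGATGCAA was 5.14 in WT (113 against 22) and 0.444 in GCN2 KO (4 against 9, interval 0.145 to 1.36). In GCN2 KO the last 2 intervals held 1. At the 2672 strongest peaks per list the ratio of later-intron peaks was 1.01 in WT and 1.08 in GCN2 KO. With lists of equal length it compares only later-intron shares. The part that library depth or peak-calling sensitivity had in these ratios was not tested.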

How the results depend on the processing

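No paired analysis was possible because each condition had 1 library and no replicates could be left out. Of 66 alternative values, 38 stayed within the 95% counting interval of the reported value, 27 moved outside it and 1 reversed. With the 2672 strongest peaks per list the GCN2 KO ratio of later-intron peaks was 1.08, counted as the reversal, and the WT ratio was 1.01. This setting fixes the list length, so its ratios compare only later-intron shares and not numbers of peaks. At a score of 30 or more the GCN2 KO and WT ratios were 0.893 and 1.64, and at 60 or more 0.5 and 8.38. The share at 60 or more in place of 100 was 2.15% in WT cells with leucine and 13.21% without, and 1.31% and 0.832% in GCN2 KO cells. The motif share in WT -Leu was 4.12% within 25 bp, 8.79% within 150 bp, 10.4% with any sixth base, 11.2% at a score of 30 or more and 16.2% in the strongest 2672. In WT +Leu it was 3.06% with any sixth base, 3.51% at 30 or more and 3.17% in the strongest 2672, and in GCN2 KO +Leu 1.97% with any sixth base. With TGATGCAA or a sequence 1 base away, added after seeing the data, it was 9.19% and 16.8% in WT cells with and without leucine, and 6.11% and 5.83% in GCN2 KO cells. With partners up to 1000 bp apart, 2.29% of GCN2 KO +Leu members recurred without leucine. Where a TSS lay within 5 kb, host and nearest gene were the same for 72.6% (+Leu) and 71.5% (-Leu) of WT members and for 69.8% and 67.1% of GCN2 KO members. Except where the construction changes what is counted, the cause was not tested. The lists give no depth, so differences between libraries in sensitivity cannot be told apart from differences in binding.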
